A study of Mus musculus with 2931 samples.

Results

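Arterial EC I is the larger of the 2 arterial endothelial labels that the submitters gave to single cells of the developing mouse lung, and its members are the cells that carry that label in the deposited cell annotation. It holds 96 of the 2931 cells of the series. The study followed lung cells of Mus musculus from late gestation (E18.5) through postnatal days 1, 7 and 21 (P1, P7, P21) in normal air, with a further group kept in hyperoxia (a raised share of oxygen) and taken at P7. A female and a male mouse, 1 of each, stand for every group. Distal lung was dissociated and cells were sorted into plates through gates for CD31 (endothelium), CD45 (immune cells) and mesenchyme. The labels name no engineered allele and no agent other than oxygen. How the subtype labels were assigned is not given in the sources used here, nor is it stated if several animals were pooled under a mouse name, so every p-value below measures the spread between these samples.

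Arterial endothelial cells line the vessels that carry blood under pressure. Their identity is set during development by Notch signalling, by SOXF transcription factors such as Sox17, and by laminar flow, and they join each other and the muscle layer through gap junctions built from the connexins Gja5 and Gja4. In the lung the arteries carry deoxygenated blood to the capillaries of the gas exchange surface, and their resistance drops at birth, when breathing begins. Lung capillary endothelium comes in a Car4+ form, which lies against the alveolar epithelium, and a more abundant Car4- form.

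The 96 cells came from 9 of the 10 mice. The E18.5 mice gave 12 and 14 cells, the P1 mice 15 and 10, the P7 mice 16 and 4, and the hyperoxia mice 15 and 9, where the female mouse comes first here and in every pair of values below. The P21 female gave 1 cell and the P21 male none, so P21 entered no test. A cell of this label held 42095 to 1905515 reads with a median of 572502, and a median of 3316.5 genes with a read. Reads were summed over the cells of each mouse, which gave 536433 reads in the P7 male and 15652338 in the P7 female at the extremes, and levels are given as CPM, the reads of a gene per 1000000 reads of the sum. The values of the P7 male thus rest on 4 cells and on the fewest reads. No 2 cells of the label had identical counts (0 identical pairs), the sex genes matched the labelled sex in 10 of 10 mice, and all but 2 cells came through the CD31 gate.

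The 3 markers of the label were present in these cells. Gja5 was at 137 and 498 CPM in the E18.5 mice, 363 and 357 at P1, 329 and 3.73 at P7 and 321 and 387 in hyperoxia, so that 7 of 8 mice stood above 100 CPM and the P7 male stood apart at 3.73 CPM. In the Early Car4- capillaries of the same postnatal mice Gja5 lay between 2.01 and 26.9 CPM, and in Car4+ capillaries it did not pass 0.504 CPM. Gja4 ran from 1469.9 to 3876 CPM over the 8 mice, against 267 to 1033 CPM in postnatal Early Car4- cells, and the ranges did not overlap. Sox17 was less specific. It lay at 293 to 747 CPM in arterial EC I, at 232 to 394 CPM in postnatal Early Car4- cells, and at 67.4 to 418 CPM in Car4+ cells, with overlapping ranges. Cells of the 8 mice were also thinned to 50000 reads. Cells with fewer reads were left out, and the P21 cell was not counted. A read of each of the 3 markers was then found in 57 of 92 arterial EC I cells (62.0%), in 34 of 830 Early Car4- cells (4.10%), in 1 of 311 nonproliferative embryonic endothelial cells (0.322%) and in 0 of 198 Car4+ cells. A further 31 arterial EC I cells held 2 of the 3 markers, and 1 cell held none.

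**Figure D1:**
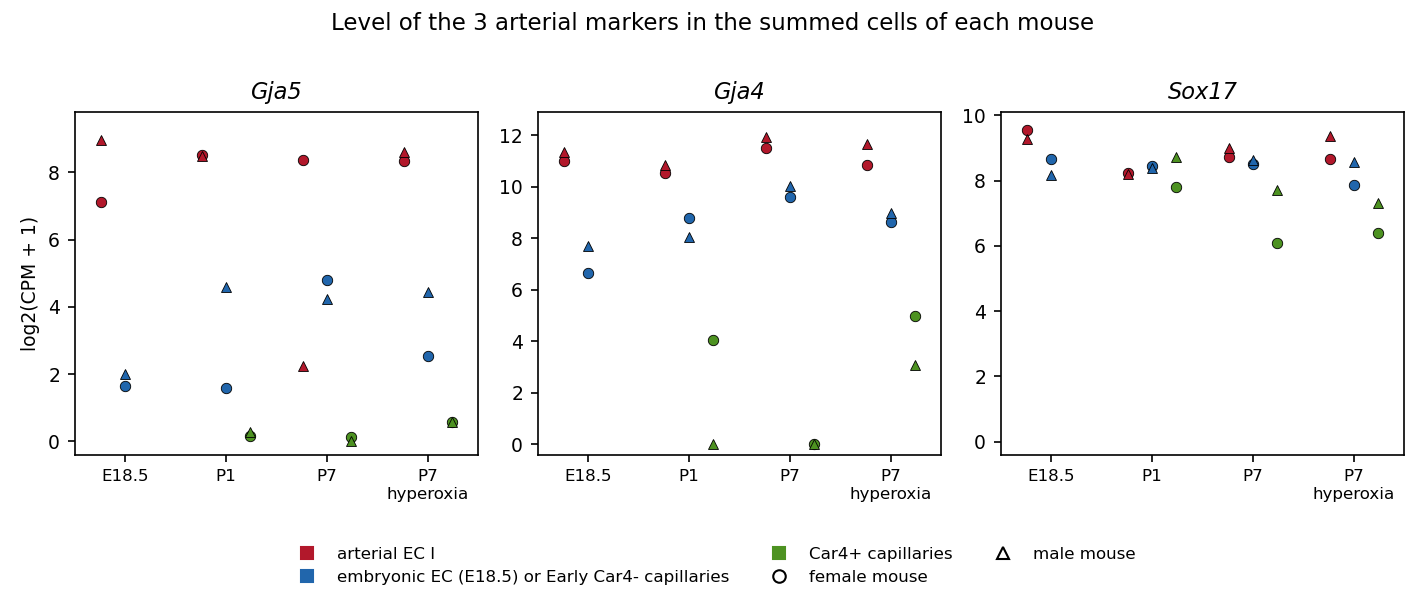
Level of Gja5, Gja4 and Sox17 on a log2(CPM + 1) axis in the summed cells of each mouse, by group on the horizontal axis; each point is 1 mouse and 1 cell class, circles are female and triangles male mice. Gja4 separates arterial EC I from both capillary classes in each group, Gja5 does so in all mice but the P7 male, at 3.73 CPM, and Sox17 overlaps.

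The other arterial label, Arterial EC II (42 cells), also held Gja5 (median 550.4 CPM over 7 mice) and Gja4 (1988 CPM). Its median level over 7 mice was 447 CPM of Dkk2, a Wnt antagonist, and 5454 CPM of Eln (elastin), whereas arterial EC I had medians of 0 and 138 CPM over 8 mice. Single genes that define other cells a lung sort can hold were near 0, while some lists were not. The median over mice was 0 CPM for Slc6a2 (venous), Prox1 (lymphatic), Mki67 (dividing cells), Acta2 (smooth muscle), Col1a1 (fibroblasts), Ptprc (leukocytes), Epcam (epithelium) and Car4. Summed over whole lists, the 10 venous markers ran from 295 to 2745 CPM over the 8 mice, above the microvascular cells of the same mouse in 7 of 8. That list holds Vwf, which alone was at 2384 CPM in the mouse with the highest sum. The 7 lymphatic markers ran from 117 to 4986 CPM, against 917 to 4256 CPM in the microvascular cells, and neither class was the higher in every mouse. That list holds Lyve1, whose values are given further below. The 14 proliferation markers ran from 58.4 to 403 CPM. The part of these lists in the results was not tested. The 7 immune markers summed to at most 86.0 CPM and the 7 epithelial markers to at most 191 CPM, both in the hyperoxia female, whose cells include 1 that came through the CD45 gate.

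Gja5 and Gja4 lie on different chromosomes of the GRCm38 build, Gja5 at chr3:96904693-97077416 on the plus strand and Gja4 at chr4:127311421-127314039 on the minus strand. The 250 bases before their RefSeq start sites are shown because these connexins carry the separation from the capillaries, and those of Plac8 and Lmcd1 because both had no arterial read at E18.5 and were called at P1. Capitals mark matches on either strand to the core letters ACAAT (SOX), TGGGAA (RBPJ, the Notch effector) and CACCC (KLF).
Gja5 (chr3:97032152-97032401, plus strand): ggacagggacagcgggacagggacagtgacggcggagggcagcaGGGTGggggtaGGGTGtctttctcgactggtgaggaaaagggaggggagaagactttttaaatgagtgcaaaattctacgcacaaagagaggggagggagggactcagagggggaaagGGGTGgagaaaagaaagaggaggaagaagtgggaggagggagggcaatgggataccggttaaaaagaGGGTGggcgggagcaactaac
Gja4 (chr4:127314040-127314289, minus strand): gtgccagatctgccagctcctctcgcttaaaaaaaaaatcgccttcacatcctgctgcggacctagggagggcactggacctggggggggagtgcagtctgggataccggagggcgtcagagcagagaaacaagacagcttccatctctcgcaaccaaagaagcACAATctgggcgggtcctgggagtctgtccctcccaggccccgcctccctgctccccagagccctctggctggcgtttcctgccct
Plac8 (chr5:100572206-100572455, minus strand, the first of 2 starts listed): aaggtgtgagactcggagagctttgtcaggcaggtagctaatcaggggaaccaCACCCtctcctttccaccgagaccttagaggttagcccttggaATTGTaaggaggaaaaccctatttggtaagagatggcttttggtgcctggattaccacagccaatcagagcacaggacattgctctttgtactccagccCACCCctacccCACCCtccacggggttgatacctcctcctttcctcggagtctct
Lmcd1 (chr6:112273508-112273757, plus strand): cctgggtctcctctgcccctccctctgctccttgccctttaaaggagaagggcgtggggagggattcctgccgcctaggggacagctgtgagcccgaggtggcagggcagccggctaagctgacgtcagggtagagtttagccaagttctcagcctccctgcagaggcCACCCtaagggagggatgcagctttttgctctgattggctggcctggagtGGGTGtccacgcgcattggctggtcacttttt
The Gja5 window held 4 CACCC matches, the Gja4 window 1 ACAAT match, the Plac8 window 3 CACCC and 1 ACAAT, and the Lmcd1 window 2 CACCC, while TGGGAA was found in 0 of these windows. Among 32851 mouse promoters of the same length from RefSeq on GRCm38.p6, 27.7% held ACAAT, 21.6% TGGGAA and 52.0% CACCC, and a match says only that the letters are there.

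To describe the label against the capillaries, summed counts of arterial EC I and of a capillary label of the same mouse were set side by side in the 6 postnatal mice of P1, P7 and hyperoxia. Because subtype labels of this kind are commonly drawn from expression, these differences describe the cells and carry no p-value. A gene was counted as set apart where the fitted log2 difference was 2 or more in size and had the same sign in all 6 mice. Against Early Car4- capillaries, 39 of 13834 genes were set apart as higher (0.282%) and 1376 as lower (9.95%), with a median difference over all genes of -1.52. That imbalance moved with the number of cells in the sums: with Early Car4- cells drawn to the number of arterial cells in each mouse, 144 genes were higher and 126 lower of 11882, and the median was -0.06. Against Car4+ capillaries, 213 of 12038 genes were set apart as higher (1.77%) and 541 as lower (4.49%), with a median of -0.58, and with matched numbers 328 were higher and 272 lower of 11392. On simulated data for the Car4+ comparison the rule also set apart 245 genes that had no change built in. The rule was not simulated for Early Car4- cells. Among 4708 genes with a mean of 50 CPM or more, 31 were higher and 135 lower than in Early Car4- cells, or 98 and 86 of 4819 with matched numbers. Against Car4+ cells these counts were 168 and 267 of 4826, or 231 and 197 of 4871. Values below are from all cells, and list medians are also given with matched numbers. The shares set beside list counts are of all genes and all cells, so they move with level and cell number. The matched values come from 1 random draw, in which genes of low level can be left with 0 reads. Their sizes are then no bound.

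The 10 named genes highest over Early Car4- capillaries ran from Bmx to Cxcl12. Bmx, a tyrosine kinase of arterial endothelium, stood at 85.1 and 72.7 CPM at P1, 234 and 16.8 at P7 and 136 and 240.1 in hyperoxia, while Early Car4- cells had 0.316 to 20.9 CPM. Its log2 difference was 5.63 ± 1.27 (SE) and it was higher in 6 of 6 mice, by least in the P7 male. Cxcl12, the ligand of Cxcr4, was at 2514 and 8232 CPM at P1, 4988 and 2811 at P7 and 5746 and 5099 in hyperoxia against 149.7 to 593 CPM, a log2 difference of 4.12 ± 0.22 in 6 of 6 mice with no overlap between the classes. Fbln5, which ties elastic fibres to cells, reached 2669 and 1102 CPM at P7 (log2 difference 4.49 ± 0.36), Fn1, fibronectin, 1052 and 87.6 CPM (4.59 ± 0.94), and Fbn1, the microfibril protein fibrillin, 107 and 145 CPM (4.20 ± 0.49). Atp13a3, a polyamine transporter (5.38 ± 0.92), the adhesion receptor Adgrg6 (4.90 ± 0.83), the flavin monooxygenase Fmo2 (4.74 ± 0.76), Plac8 (4.25 ± 0.58) and the synaptotagmin Syt15 (4.22 ± 1.29) complete the list of 10, each higher in 6 of 6 mice. With matched cell numbers the log2 differences of these 10 genes were larger, from 5.07 for Fbln5 to 13.16 for Bmx. These sizes rest on 1 random draw of few capillary cells and are no bound where the drawn cells held few or no reads.

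At the other end, Gxylt2, a xylosyltransferase that modifies Notch, had 0 arterial reads in the 6 postnatal mice, against 26.8 to 142 CPM in Early Car4- cells. Nr2f2, the transcription factor of venous identity, was at 0 in 5 of these 6 mice and at 6.9 CPM in the P7 female, against 35.8 to 79.7 CPM in the capillaries. Car4 itself was at 0 CPM in 4 of the 6 mice, at 37.3 in the P7 male and at 54.0 in the hyperoxia female. The potassium channel Kcnh1 and Ramp3, a partner of the adrenomedullin receptor, followed with arterial levels of at most 28.8 and 8.05 CPM, each above 0 in 2 of the 6 mice.

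Against Car4+ capillaries Cxcl12 had the largest positive difference, with at most 2.84 CPM in the Car4+ cells of any mouse and a log2 difference of 14.81 ± 1.22. Vwf, the clotting factor carrier, was at 617 and 2384 CPM at P1, 802 and 149 at P7 and 393 and 1289 in hyperoxia in arterial EC I and at no more than 0.129 CPM in Car4+ cells. The P7 male was the lowest of the arterial values and still stood far above them. The Z-line protein Pdlim3, Syt15, Adgrg6, Bmx, Fbln2, Cdc42ep3, the latent TGF-beta binding protein Ltbp1 and Edn1, the precursor of the vasoconstrictor endothelin, had log2 differences between 10.74 and 13.79. These sizes depend on Car4+ levels close to 0: Pdlim3 and Syt15 had 1 read each in all Car4+ cells of the 6 mice. On the lower side Fibin, Gpx3, Sirpa, Hapln1 and Tex14 had 0 arterial reads in the postnatal mice, while Fibin, for one, lay at 62.8 to 888 CPM in Car4+ cells.

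**Figure D2:**
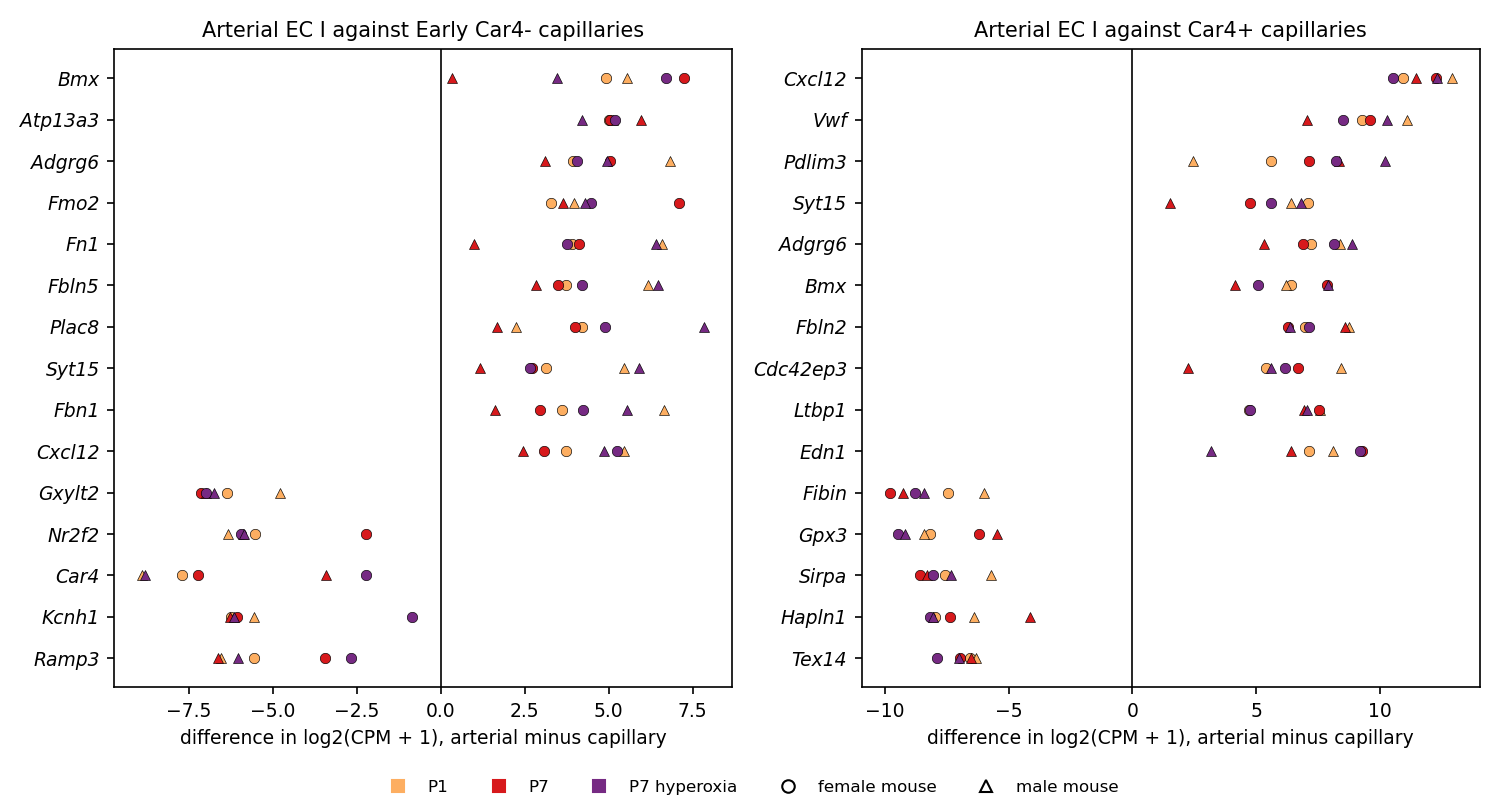
Difference on the log2(CPM + 1) scale between arterial EC I and Early Car4- (left) or Car4+ capillaries (right) for the named genes in each of the 6 postnatal mice. The points of each named gene lie on 1 side of 0 in 6 of 6 mice, as the rule for naming them required.

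The transcription factor, Notch, connexin and surface lists are made of genes tied to arterial identity, the markers Gja5, Gja4 and Sox17 among them. They were written with earlier results of these data known. Their counts against the capillaries describe the label and support nothing further. Read by role, the list of arterial transcription factors had 11 of its 13 genes among those tested against Early Car4- cells. Of these, 3 were set apart as higher (0.282% of all genes) and 0 as lower (9.95%), and the list median was 0.27 (0.51 with matched numbers). Mecom, at 161 and 114 CPM at P7 against 10.7 and 30.3 in Early Car4- cells, differed by 3.61 ± 0.52. Gata6 differed by 2.72 ± 0.55 and the Notch effector Hey1 by 2.36 ± 0.30, with Hey1 at 252 to 959 CPM in the postnatal mice against 74.1 to 151. Sox18 was higher in 6 of 6 mice by a smaller amount, 1.01 ± 0.25. The flow-responsive Klf2 (0.19 ± 0.27) and Klf4 (-0.16 ± 0.30) showed no difference of one sign over the mice.

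Of 14 Notch pathway genes, 14 were tested, 6 were higher in 6 of 6 mice (1.37% of all genes) and 0 lower in 6 of 6 (11.8%), with a median of 0.59 (0.91 with matched numbers). The ligands Jag1 (1.78 ± 0.45), Dll4 (1.47 ± 0.32) and Jag2 (1.00 ± 0.47), the receptor Notch1 (0.79 ± 0.25) and the targets Hey1 and Efnb2, the arterial ephrin (1.60 ± 0.25), made up the 6. Dll4 was at 462 and 340.2 CPM at P1, 397 and 391 at P7 and 579 and 402 in hyperoxia against 86.0 to 254 CPM, without overlap. Jag1 was uneven between mice, at 153 and 1735 CPM at P1 and 129 and 1009 in hyperoxia. Against Car4+ cells 5 Notch genes were set apart as higher, where 1.77% of all genes were, and Notch1 kept its direction in 5 of 6 mice.

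Among 4 connexins, Gja4 (2.19 ± 0.18) was higher in 6 of 6 mice and Gja5 (3.99 ± 0.78) in 5 of 6, the exception being the P7 male. Gja1 was low and uneven, at 106 and 1.08 CPM at P1 and at 0 in both P7 mice. Of 17 genes for arterial surface and secreted proteins, 17 were tested and 5 were set apart as higher (0.282% of all genes). In 6 of 6 mice 9 were higher, where 1.37% of all genes were (median 1.85, or 4.58 with matched numbers). Beside Bmx, Cxcl12 and Plac8 they include Depp1 (2.74 ± 0.25), the guidance receptor Unc5b (1.85 ± 0.38), the membrane protein Tm4sf1 (1.39 ± 0.12) and Sema3g (1.03 ± 0.63). Cxcr4 was also higher in 6 of 6 mice, 3.19 ± 1.62, but at levels of only 5.37 to 67.8 CPM, beside the high level of its ligand in the same cells.

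The elastic fibre list had 13 of 15 genes tested, 4 set apart as higher (0.282% of all genes) and 1 as lower (9.95%), and a median of 0.77 (2.70 with matched numbers). Ltbp4, which carries latent TGF-beta to elastic fibres, was at 875 and 679 CPM at P7 against 51.5 and 76.1 and differed by 3.85 ± 0.41. Eln differed by 1.29 ± 0.45 in 6 of 6 mice, though its arterial level went from 111 to 1354 CPM. In the basement membrane list the median was -0.27, and 0.07 with matched numbers. Of its 12 genes 3 were lower in 6 of 6 mice, where 11.8% of all genes were, namely Col4a1 (-1.55 ± 0.27), Col4a2 (-1.67 ± 0.31) and Sparc (-0.65 ± 0.12), and Lamb2 was higher in 6 of 6 (1.23 ± 0.47). In the vasomotor list (15 genes) Ednrb (1.77 ± 0.50) and Ace (0.75 ± 0.26) were higher in 6 of 6 mice, as 1.37% of all genes were.

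Capillary genes were split. Of 8 general capillary genes, Kit (-2.23 ± 0.47), Gpihbp1, which anchors lipoprotein lipase (-1.85 ± 0.37), and Cd93 (-0.57 ± 0.14) were lower in 6 of 6 mice (11.8% of all genes). Plvap, the diaphragm protein of fenestrae and caveolae (0.65 ± 0.17), and Ptprb (1.23 ± 0.15) were higher in 6 of 6 (1.37% of all genes). Of 9 Car4 capillary genes, 8 were set apart as lower than in Car4+ cells (4.49% of all genes) and 0 as higher (1.77%). The list is made of markers of the Car4+ label, so the count describes that label and supports nothing further. The ninth, Ednrb, was lower in 5 of 6 mice, at 338 and 1002 CPM at P1, 236 and 453 at P7 and 399 and 3059 in hyperoxia against 1658 to 3344 CPM in Car4+ cells. Of 9 pan-endothelial genes, 2 had a difference from Early Car4- cells above 0 and 7 below (median -0.19, or -0.05 with matched numbers), and 1 was lower in 6 of 6 mice (11.8% of all genes). Summed over the list they were lower in arterial EC I than in Early Car4- and in Car4+ cells of the same mouse in 6 of 6 mice, at 7648 CPM against 11079.7 and 13419.6 in the hyperoxia male, for one. The gap to Early Car4- cells was small in the P7 female, at 9528 against 9591 CPM. With cells labelled Late Car4- capillaries added, the capillary sum of that mouse was lower, at 9286 CPM.

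The share of arterial EC I among CD31-gate cells was 4.42% ± 0.524 (SD, n = 2 mice) at E18.5, 4.54% ± 0.319 at P1, 3.34% ± 1.90 at P7 and 0.177% ± 0.251 at P21, and 4.41% ± 1.23 in hyperoxia. The P7 mice differed most between themselves, with 15 of 320 cells (4.69%, 95% exact Clopper-Pearson interval 2.65 to 7.61%) in the female and 4 of 200 (2.00%, 0.548 to 5.04%) in the male. At P21 the female had 1 of 282 cells (0.355%, 0.00898 to 1.96%) and the male 0 of 238 (exact interval up to 1.54%), and 3 cells, the limit that a count of 0 allows, would be 1.26%. These intervals cover counting error only. The variance of the 4 age means was compared with its value under all 2520 assignments of the mice, an exact permutation test, with p = 0.105 and a smallest possible p of 0.00952. With proliferating cells left out of the denominator the means were 6.76, 4.73, 3.98 and 0.177%, and the exact permutation p was 0.0476. Shares of sorted cells also move with what else passed the gate, and this was not tested.

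Across birth, 4 genes were called as higher in arterial EC I and 0 as lower. Counts per mouse were fitted with edgeR's quasi-likelihood test over the 8 mice, and genes were called at a Benjamini-Hochberg adjusted p below 0.05. Of 10704 genes tested between P1 and E18.5, 4 were called (0.0374%), and 373 had an unadjusted p below 0.05. DESeq2 called 157 genes as higher and 89 as lower. On simulated data for this step 1.49% of 4-fold changes were recovered, so a gene not called may still have changed. Plac8, a small cysteine-rich protein (chr5:100553725-100572245, minus strand), had 0 reads in both E18.5 mice and 400.3 and 175 CPM at P1, with a read in 40% of P1 cells and none of the E18.5 cells. Its P1 level was 2030-fold above a floor of 3 reads over the E18.5 group (adjusted p = 0.000158, edgeR). Lmcd1, a LIM-domain cofactor of transcription (chr6:112273758-112330425, plus strand), also went from 0 reads in both mice to 191 and 532 CPM. That was 2041-fold above the same floor (adjusted p = 0.0150, edgeR). Such ratios treat reads as independent, although the reads of a gene come from few cells. They do not cover which cells were sampled and are no lower bound on the change. Neither gene's values overlapped between the ages. Without the P1 female the ratio to the floor was 1125-fold for Plac8 and 3413-fold for Lmcd1, and without the P1 male 2568-fold and 1223-fold. Leaving out any 1 of the 8 mice kept 4 of 4 calls, although a group left with 1 mouse is then assumed to vary like the others, and raised the number of genes called to between 11 (without the hyperoxia male) and 72 (without the P1 female).

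Wfdc1, a secreted protease-inhibitor-like protein (chr8:119666365-119688222, plus strand), stood at 0.543 and 0 CPM at E18.5 and 263 and 1254 at P1, a log2 change of 11.55 ± 1.43 (SE; adjusted p = 0.00107, edgeR). Thbd, thrombomodulin, the surface anticoagulant of endothelium (chr2:148404466-148408188, minus strand), was at 54.7 and 30.97 CPM at E18.5 and 876 and 1197 at P1, a log2 change of 4.56 ± 0.72 (adjusted p = 0.0150, edgeR). Its cells with a read went from 26.9% to 84.0%. The call of Thbd was lost with cells thinned to equal depth (adjusted p = 0.0642, edgeR) and those of Thbd and Lmcd1 with limma (0.0601 and 0.0948). The E18.5 and P1 female libraries were sequenced in the same run, and within that pair the 4 genes had 0, 0, 0.543 and 54.7 CPM at E18.5 and 400.3, 191, 263 and 876 CPM at P1. The male pair came from different runs.

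**Figure D3:**
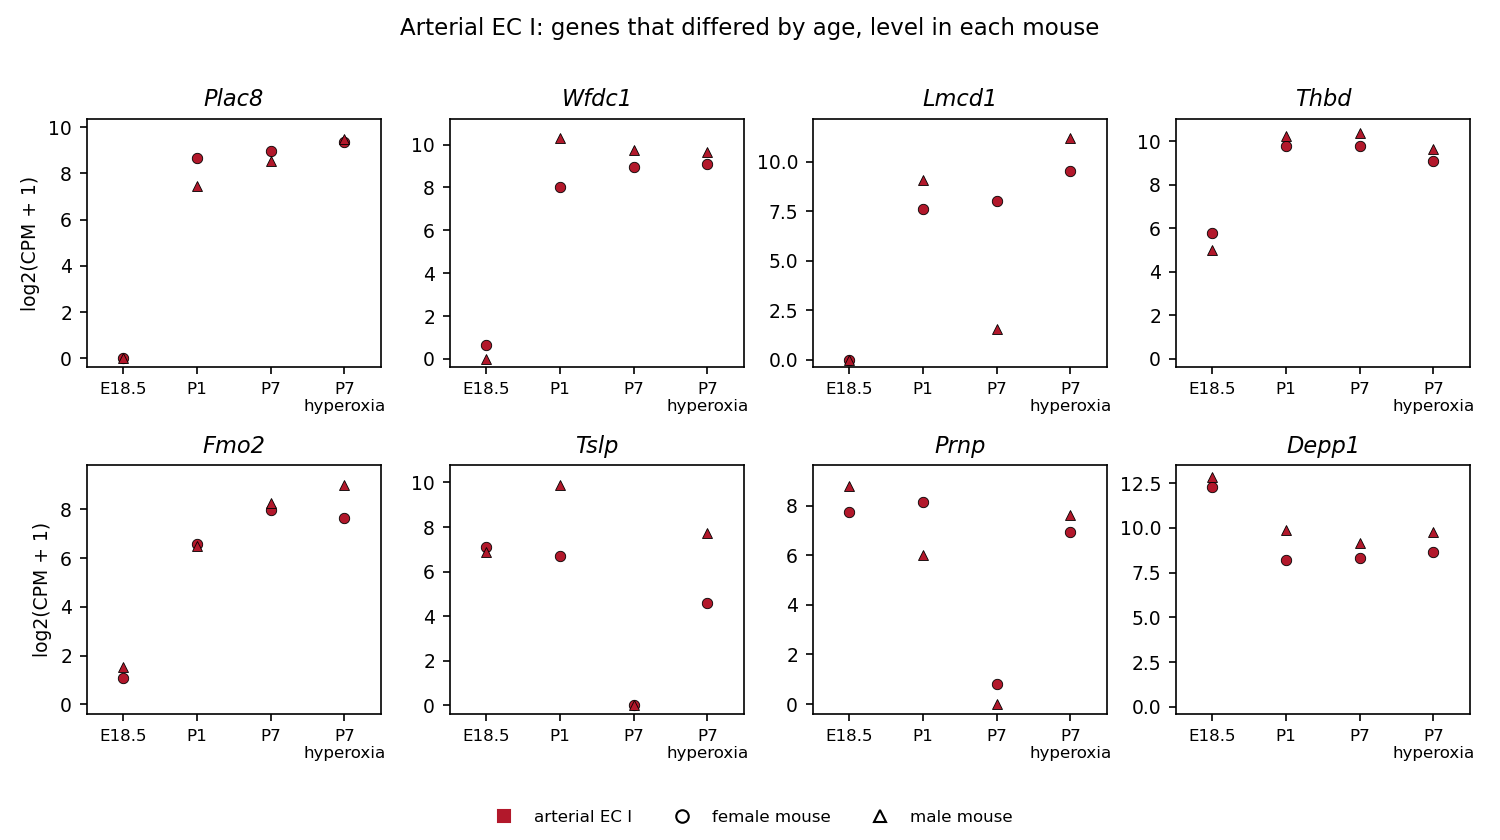
Level on a log2(CPM + 1) axis of 8 genes called in a comparison of ages, in the arterial EC I sum of each mouse, by group; circles are female and triangles male mice. Plac8, Wfdc1, Lmcd1 and Thbd step up between E18.5 and P1 in both mice, with the P7 male low for Lmcd1 at 1.86 CPM. Tslp and Prnp drop at P7 in normal air, while both hyperoxia mice, also of P7, hold reads of these 2 genes.

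At P7 in normal air, 5 genes were called as higher than at E18.5 and 3 as lower (8 of 10704, 0.0747%). An unadjusted p below 0.05 was found for 521 (edgeR). Both comparisons share the E18.5 mice. Plac8 was at 506 and 369 CPM (3220-fold above a floor of 3 reads at E18.5, adjusted p = 0.000105, edgeR), with a read in 75% of cells. Wfdc1 was at 498 and 854 CPM and Thbd at 869 and 1314 CPM. Lmcd1 was at 253 and 1.86 CPM, so its call rests on the P7 female. Without that mouse the adjusted p was 0.367 in edgeR's test. Fmo2, a drug- and xenobiotic-oxidising enzyme of the lung, went from 1.09 and 1.85 CPM at E18.5 through 95.8 and 88.4 at P1 to 249 and 304 at P7, a log2 change of 7.36 ± 1.22 between E18.5 and P7 (adjusted p = 0.0210, edgeR). Leaving out 1 mouse gave 22 (without the P7 male) to 55 calls (without the P7 female).

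The 3 genes called as lower at P7 in normal air fell at different times. Depp1, a FOXO-induced gene (chr6:116650609-116652794, plus strand), was at 4929 and 7519.7 CPM at E18.5, 291 and 956 at P1 and 314 and 578 at P7, and fell by 4.01 ± 0.70 on the log2 scale from E18.5 to P7 (adjusted p = 0.0275, edgeR). Its P1 values already lay below both E18.5 values, with an adjusted p of 0.145 for that step. Prnp, the prion protein, was at 215 and 443 CPM at E18.5, 286 and 64.1 at P1 and 0.767 and 0 at P7 (-9.05 ± 1.48, adjusted p = 0.0210, edgeR). Tslp, a cytokine of the interleukin family best known from epithelium, was at 137 and 115 CPM at E18.5 and 101 and 943 at P1 and had 0 reads at P7. Its E18.5 level was 666-fold above a floor of 3 reads at P7 (adjusted p = 0.0275, edgeR), a call lost with thinned cells (0.0511) and with limma (0.196). Within the E18.5 and P7 males, which share a run, Depp1 was at 7519.7 and 578 CPM, Prnp at 443 and 0, and Tslp at 115 and 0.

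Between P1 and P7 alone, Tslp was the 1 gene called (0.00934% of 10704), at least 2243-fold lower at P7 (adjusted p = 0.0497, edgeR), with 363 genes at an unadjusted p below 0.05. The P1 reads of Tslp come mostly from the male: the bound is 547-fold without it and 5089.9-fold without the female. The call sat at the threshold: it was lost with CD31-gate cells alone (0.0507), with the coverage in the labels as library size (0.0512) and with limma (0.386). Prnp (adjusted p = 0.135) and the ephrin Efna1 (1003 and 1653 CPM at P1, 134 and 249.8 at P7, adjusted p = 0.612, edgeR) were next in that direction, and 0 genes were called as higher at P7. Without the P1 female 65 genes were called, and without the P7 male 4. No P1 and P7 library share a run, so age and run cannot be told apart here.

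The gene lists, which were written with earlier results of these data known, held few called genes at any age step. From E18.5 to P1, 11 of 12 tested elastic fibre genes had a fitted change above 0, with a median of 1.56 against 0.04 over all genes. Both P1 mice lay above both E18.5 mice for 4 of them, where 16.4% of all genes did so, and 0 were called. Eln was at 20.4 and 40.3 CPM at E18.5 and 221 and 1354 at P1 (4.72 ± 1.06, adjusted p = 0.248, edgeR), and Fbln5 at 348 and 189 and 968 and 1262 CPM. By P7, 10 of 12 were above 0 with a median of 1.88 against -0.12.

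For 15 vasomotor genes the median from E18.5 to P1 was 1.29, with 13 above 0, both P1 mice above both E18.5 mice in 8 (16.4% of all genes), and 0 called. Ednrb, the endothelial endothelin receptor, was at 3.94 and 0 CPM at E18.5 and 338 and 1002 at P1 (8.44 ± 1.56, adjusted p = 0.0836, edgeR). Pde3a, a cyclic nucleotide phosphodiesterase, was at 24.6 and 22.9 CPM at E18.5, 306 and 437 at P1 and 278 and 459 at P7 (adjusted p = 0.210 at P1 and 0.195 at P7, edgeR), with no overlap between E18.5 and either age. Among 13 BMP and TGF-beta genes, both P7 mice lay above both E18.5 mice in 9, where 15.4% of all genes did so, with a median of 1.82 and 0 called. Between P1 and P7, mice that also enter the other steps, 7 of the 13 lay higher in both P7 mice (13% of all genes) and 1 lower (17.3%). Smad6, an inhibitor of BMP signalling, was at 35.8 and 43.3 CPM at E18.5 and 311 and 401 at P7, the co-receptor Eng at 299 and 488 and 2078 and 1924, and the receptor Bmpr2 at 59.9 and 187 and 621 and 501.

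Of 9 imprinted growth genes tested, 8 had a fitted change below 0 at P1 (median -0.83) and 7 at P7 (median -1.72), with 0 called. Both later mice lay below both E18.5 mice for 4 of them at P1 (13.6% of all genes) and 5 at P7 (17.7%). H19 was at 631 and 1159.7 CPM at E18.5, 4.36 and 252 at P1 and 1.98 and 0 at P7, and Igf2r, which clears IGF2, at 270.2 and 165, 137 and 198 and 14.8 and 11.2. Of 12 hypoxia-response genes 7 were below 0 at P1 (median -1.66) and 9 at P7 (median -1.27), again with 0 called. Egln3, an oxygen-sensing hydroxylase, had 126 and 1.35 CPM at E18.5 and 0 reads in each later group. The arterial lists went both ways. Of 10 arterial transcription factors, 5 were above and 5 below 0 at P1 (median -0.01). Without overlap 2 were higher, where 16.4% of all genes were, and 3 lower (13.6%). Of 13 Notch genes 10 were above 0, with 5 higher (16.4% of all genes) and 1 lower (13.6%) without overlap. Of 17 surface and secreted genes 12 were above 0, with 6 higher and 2 lower beside the same shares, and Plac8 called. The 4 connexins had a median of -0.20 at P1 and -2.01 at P7, with 0 called.

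Whether a step at birth differed between arterial EC I and the main microvascular label of the same mice was tested as an interaction. The partner label changes with age, being nonproliferative embryonic endothelium at E18.5 and Early Car4- capillaries at P1, so part of the difference may follow the labels, which was not tested. The test called 8 of 13834 genes (0.0578%), 5 with the larger increase in arterial EC I and 3 with the smaller, while an unadjusted p below 0.05 was found for 363 (edgeR). Tmem100, a membrane protein induced by BMP signalling (chr11:90030348-90036508, plus strand), was at 1086 and 796 CPM at E18.5 and 2525 and 1964 at P1 in arterial EC I, and at 276 and 87.6 and 2716 and 2216 CPM in the microvascular cells, an interaction of -2.87 ± 0.36 on the log2 scale (adjusted p = 0.00272, edgeR). Epas1, the hypoxia-inducible factor of endothelium (chr17:86753700-86833410, plus strand), stayed between 734 and 1155 CPM in arterial EC I at these ages and went from 256 and 169 to 1816 and 1279.5 CPM in the microvascular cells (-2.60 ± 0.47, adjusted p = 0.0414, edgeR). Tm4sf1 had the same shape, with 2894 and 4918 and then 3317 and 4466 CPM against 416 and 553 and then 1377 and 1612 CPM (-1.76 ± 0.30, adjusted p = 0.0310, edgeR). For these 3 genes the arterial cells held the higher level at E18.5.

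The 5 genes with the larger arterial step were Ednrb, Thbd, Wfdc1, Plac8 and Lmcd1. Ednrb started near 0 in arterial EC I (3.94 and 0 CPM) but at 318 and 392 CPM in the microvascular cells, and at P1 the classes lay at 338 and 1002 and 226 and 443 CPM (9.40 ± 1.46, adjusted p = 0.0249, edgeR). Thbd likewise stood at 785 and 1514 CPM in the microvascular cells at E18.5 and at 1314 and 3281 at P1 (3.55 ± 0.57, adjusted p = 0.0267, edgeR). Wfdc1 went from 7.94 and 10.9 to 197 and 588 CPM in the microvascular cells (6.12 ± 1.05, adjusted p = 0.0317, edgeR). Plac8 (adjusted p = 0.0310, edgeR) and Lmcd1 (0.0414) had 0 arterial reads at E18.5, while the microvascular cells were at 20.9 and 36.4 and 28.4 and 41.5 CPM at P1. With microvascular cells drawn to the number of arterial cells, the calls of Lmcd1 (adjusted p = 0.331), Epas1 (0.144) and Tm4sf1 (1.00, edgeR) were lost. DESeq2 lost Epas1 (0.0771) and Tm4sf1 (0.266), and thinned cells lost Wfdc1 (0.140, edgeR). Limma called 3 genes and lost Ednrb (0.204), Thbd, Wfdc1, Plac8, Lmcd1 and Epas1 of the 8. Without the E18.5 female the calls of Lmcd1 (0.299), Plac8 (0.0691), Epas1 (0.101) and Tm4sf1 (0.0547, edgeR) were lost. Without the E18.5 male those of Plac8 (0.108), Wfdc1 (0.0905), Thbd (0.125), Epas1 (0.125) and Tm4sf1 (0.112, edgeR) were lost, without the P1 male that of Wfdc1 (0.116) and without the P7 female that of Epas1 (0.0567, edgeR). Tmem100 and Ednrb stayed called without any 1 mouse, and without the P1 female 82 genes were called. Of the lists, the immediate early genes, which respond within minutes to stimulation, had an arterial minus microvascular difference that was larger at P1 without overlap between the mice for 6 of 10 (19% of all genes). For 4 of 13 BMP and TGF-beta genes it was lower in both (14.7%).

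**Figure D4:**
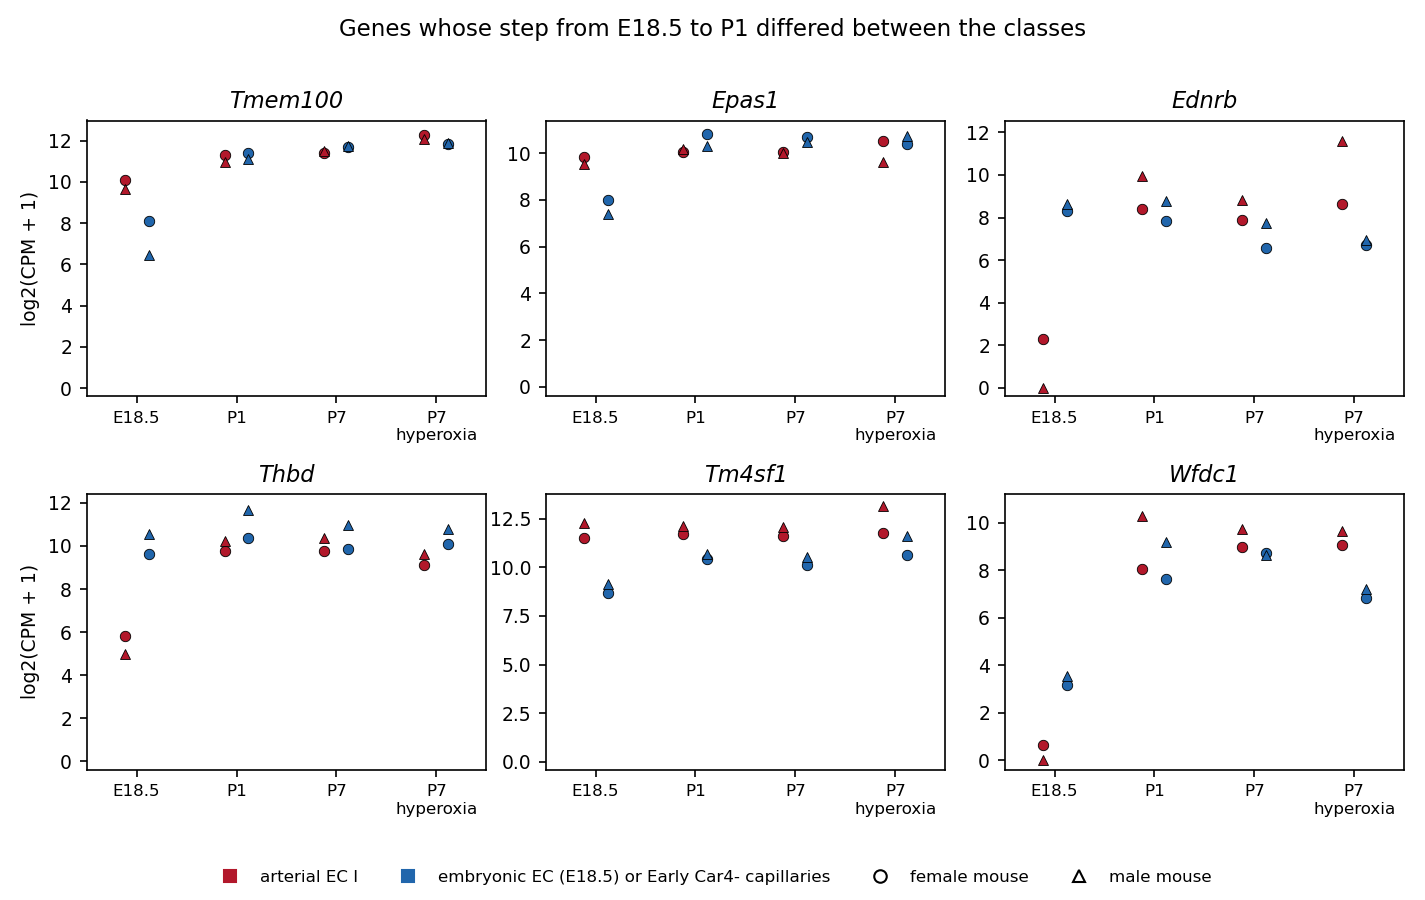
Level on a log2(CPM + 1) axis of 6 of the 8 genes called in the interaction, in arterial EC I and in the main microvascular label (nonproliferative embryonic endothelium at E18.5, Early Car4- capillaries later) of each mouse; circles are female and triangles male mice. Ednrb, Thbd and Wfdc1 start lower in arterial EC I at E18.5, Tmem100, Epas1 and Tm4sf1 start higher.

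For the step from P1 to P7 the same test against Early Car4- capillaries gave 0 calls among 13834 genes, while 255 had an unadjusted p below 0.05 in edgeR, limma called 0 and DESeq2 166. With the P1 female left out 52 genes were called. Prnp had the lowest p (-8.73 ± 1.40, adjusted p = 0.0780, edgeR): it went from 286 and 64.1 to 0.767 and 0 CPM in arterial EC I and from 50.02 and 37.0 to 98.9 and 33.0 in Early Car4- cells. Among the lists, the arterial minus capillary difference was higher in both P7 mice than in both P1 mice for 7 of 13 BMP and TGF-beta genes (14% of all genes) and lower for 5 of 17 surface and secreted genes (18.1%).

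Hyperoxia gave no called gene in arterial EC I. Of 10704 genes tested at P7 between hyperoxia and normal air, 0 passed in edgeR's quasi-likelihood test and 0 in limma, DESeq2 called 187, and 238 had an unadjusted p below 0.05. Leaving out 1 mouse gave 4 to 26 calls, the most without the P7 female in normal air. Tslp was at 0 reads in both P7 mice in normal air and at 23.2 and 210.0 CPM in hyperoxia, Prnp at 0.767 and 0 and 123 and 194 CPM (both with adjusted p = 0.153, edgeR). Efna1 was at 134 and 249.8 CPM in normal air and 848 and 1457 in hyperoxia. For Tslp, Prnp and Efna1 the same 2 normal-air mice are also the low side of the age comparisons, so these results share 1 group. Sat1, which acetylates polyamines, was at 1129 and 982 CPM in normal air and 4045 and 6524 in hyperoxia (2.38 ± 0.51, adjusted p = 0.633, edgeR). On the lower side Abtb1 was at 101 and 67.1 and then 0.112 and 0 CPM, the junction protein Cgnl1 at 106 and 226 and 0.896 and 3.01, and Egr1 at 255 and 455 and 26.2 and 24.3. Of 17 arterial surface and secreted genes 6 were higher in both hyperoxia mice (16.8% of all genes) and 0 lower. For the genes just named with values the 2 hyperoxia mice did not overlap with the 2 in normal air. Within the male pair, which shares a run, Sat1 was at 982 and 6524 CPM and Egr1 at 455 and 24.3.

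Egr1 belongs to the immediate early genes, which tissue dissociation can also induce. In arterial EC I both hyperoxia mice lay below both normal-air mice for 5 of 10 such genes, where 12.4% of the genes tested did so, with a median change of -1.49 against 0.11 over all genes. Fos was at 727 and 5184 CPM in normal air and 152 and 437 in hyperoxia, and Cyr61 at 588 and 1659 and 183 and 12.1, and 0 of the 10 were called. In all Early Car4- cells 3 of the 10 were lower (14.6% of genes with reads) and 2 higher (17.5%). With Early Car4- cells drawn to the arterial number, 4 were lower (11.3%) and 0 higher (14.4%). The median difference on the log2(CPM + 1) scale was -1.66 in arterial EC I, 0.14 in all Early Car4- cells and -1.83 in the drawn ones. In Car4+ cells the medians were 0.12 and -0.42. Epithelial marker reads were also higher in the hyperoxia cells, 191 and 30.7 CPM summed over the 7 markers against 4.09 and 0 in normal air, with Sftpc, a surfactant gene, at 163 and 14.8 CPM in hyperoxia, and the part of these reads in other differences was not tested.

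The p53 targets, which answer DNA damage and rise in oxygen-injured lung, differed in how arterial and capillary cells stood. In Early Car4- capillaries both hyperoxia mice lay above both normal-air mice for 12 of 14 genes (background 17.5% of genes with reads), and in Car4+ capillaries also for 12 of 14 (17.3%). In arterial EC I this held for 1 of the 12 genes with reads (15.2%). The median difference on the log2(CPM + 1) scale was 2.11 in Early Car4- cells, 1.48 in Car4+ cells and 0 in arterial EC I. With capillary cells drawn to the number of arterial cells the counts were 10 of 14 in both capillary classes, with medians of 2.34 and 1.55. The 1 arterial gene was Phlda3, at 114 and 169.6 CPM in normal air and 254 and 477 in hyperoxia, against 72.9 and 106 and 303 and 485 in Early Car4- cells.

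Cdkn1a, the cell cycle inhibitor p21, was at 98.7 and 5.59 CPM in normal air and 71.5 and 341 in hyperoxia in arterial EC I, with overlapping mice, at 215 and 211 and 2344 and 3409 in Early Car4- cells, and at 987 and 1004 and 2787 and 4598 in Car4+ cells. Bax, which opens mitochondria in apoptosis, was at 151 and 192 and 149 and 286 CPM in arterial EC I and at 156 and 163 and 558 and 734 in Early Car4- cells. In the test of the difference in the hyperoxia effect against Early Car4- cells, 12 of 14 p53 genes had a fitted value below 0 with a median of -1.94 against 0.11 over all genes. For 8 of the 14 the arterial minus capillary difference was lower in both hyperoxia mice than in both normal-air mice (14.9% of all genes), and for 5 of 17 surface and secreted genes it was higher in both (17.7%). None of the 13834 genes passed (0 calls in edgeR with 253 at an unadjusted p below 0.05, 193 in DESeq2 and 0 in limma). For Cdkn1a the interaction was -1.26 ± 2.504 and for Bax -1.59 ± 0.80 (adjusted p = 1.00 for both, edgeR). The arterial values rest on 20 cells in normal air and 24 in hyperoxia, and without the hyperoxia female 29 genes of the whole table were called.

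**Figure D5:**
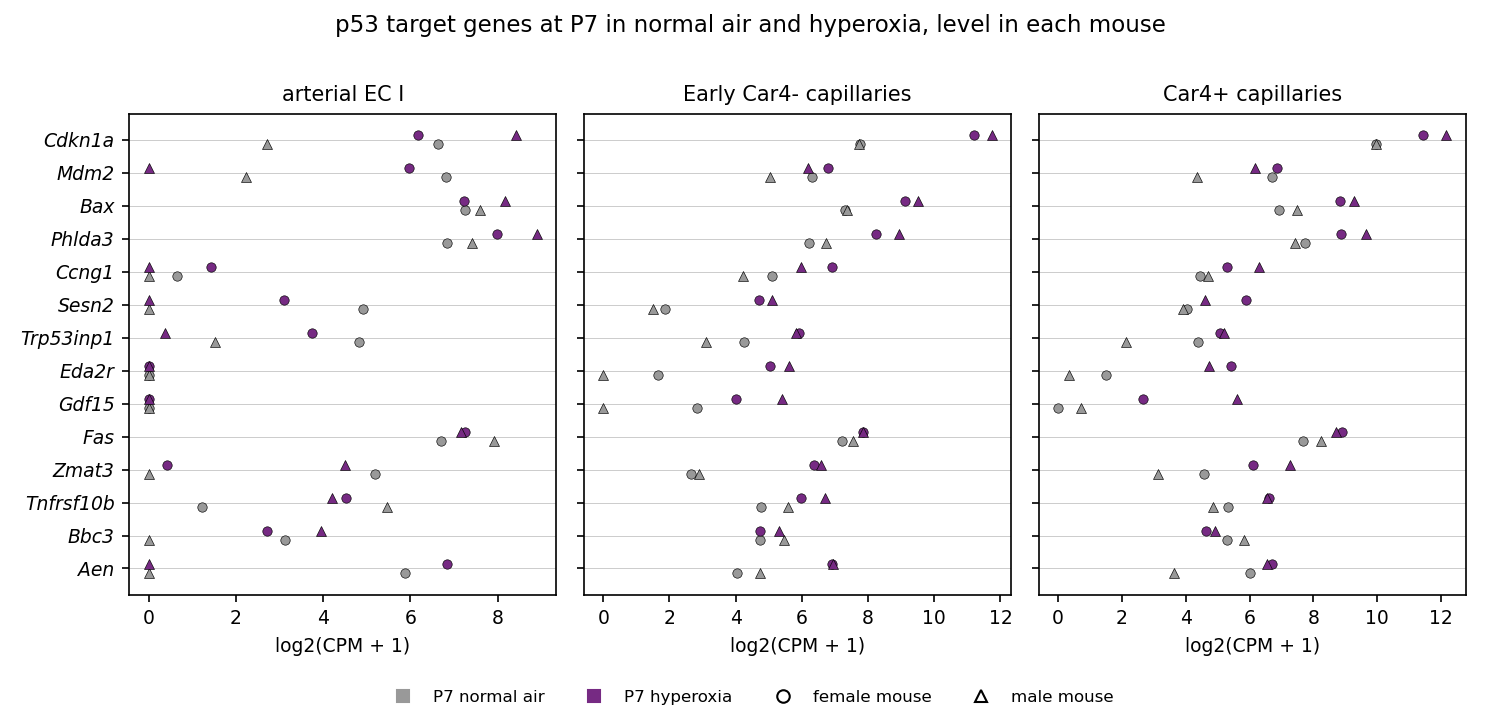
Level on a log2(CPM + 1) axis of 14 p53 target genes at P7 in normal air (grey) and hyperoxia (purple) in arterial EC I, Early Car4- and Car4+ capillaries; each point is the summed cells of 1 mouse, circles female and triangles male. In both capillary classes the purple points lie to the right of the grey ones for 12 of 14 genes, in arterial EC I for Phlda3.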

How the data were processed

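Single-cell RNA libraries of sorted mouse lung cells were measured, 1 library per cell. The deposited table holds read counts per gene that the authors made, with STAR 2.5.2b and HTSeq 0.10 named per the submitters' processing notes. Those notes name the human build GRCh38 although the labels give mouse, so the build behind the counts is uncertain, and the positions printed come from a mouse GRCm38 annotation by symbol (18017 symbols, 99.7%). The table has 18072 genes, 103 of them at 0 in every cell, and no column was left unused. Its total per cell was a median of 89.5% of the coverage in the labels.

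Arterial EC I cells were taken by the submitters' label, and counts were summed per mouse and class where a mouse had at least 4 cells. The members, lists, named-gene rule and tests were chosen with earlier results of these data known. Age, hyperoxia and interaction comparisons used edgeR 4.0.16 (R 4.3.3) with TMM scaling, filterByExpr, quasi-likelihood tests and Benjamini-Hochberg adjustment over all genes tested, fitted over all 8 mice. Capillary differences used the same fit with mouse as a block and are given without p. The 24 lists matched in full. Text names genes that passed, up to 8 per direction by size (10 higher and 5 lower for the capillary differences), with a log2 difference of 2 or more for capillaries, and in each case a mean of 50 CPM or more and reads in 25% of cells on the higher side, filled to 3 per direction by p. Genes of the lists are named by role. The interactions name every called gene.

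Alternatives were no filter, cells thinned to 50000 reads, CD31-gate cells alone, DESeq2 1.42.0, limma 3.58.1, sex as a block and each mouse left out. Label coverage as library size and capillary cells matched in number (1 random draw) were added after seeing the data. Doublets were not called, and cells were filtered by no rule beyond the label. On simulated data for P1 against E18.5 (10704 genes), 80.3% of 64-fold, 26.9% of 16-fold and 1.49% of 4-fold changes were recovered, with 5 false calls. For the E18.5 to P1 interaction (13834 genes) these shares were 66.7, 35.8 and 0%, with 0 false calls. For arterial EC I against Car4+ capillaries (12038 genes) they were 87.9, 65.7 and 14.9%, with 245 false calls. Python 3.11.15, NumPy 2.4.6, pandas 2.3.3, SciPy 1.17.1 and matplotlib 3.10.9 were used.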

Additional observations from a re-analysis of the deposited data

Results flagged for a closer look

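The step from E18.5 to P1 differed between arterial EC I and the main microvascular label for 8 genes, by the interaction term of edgeR's quasi-likelihood test. On the log2 scale the interaction was 9.40 for Ednrb, 6.12 for Wfdc1, 3.55 for Thbd, 13.70 for Plac8 and 14.11 for Lmcd1, and -2.87 for Tmem100, -2.60 for Epas1 and -1.76 for Tm4sf1. The values for Plac8 and Lmcd1 rest on 0 arterial reads at E18.5 and are no bound. With 2 mice per group, no group could be tested for an outlying sample.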

How the results depend on the processing

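The number of called genes depended on the method and on single mice, and the cause was not tested. DESeq2 called 246 genes for P1 against E18.5, 210 for P7 against P1, 369 for P7 against E18.5, 187 for hyperoxia, and 166, 193 and 281 for the interactions of P1 to P7, of hyperoxia and of E18.5 to P1. Without a filter on low counts the same 7 comparisons gave 15, 12, 32, 10, 11, 14 and 37 calls. Thinned cells gave 8 for P1 against E18.5 and 4, 2 and 20 for the 3 interactions. Sex as a block gave 7 for P1 against E18.5, 13 for P7 against E18.5 and 1 for hyperoxia. The call between P7 and P1 became 0 with CD31-gate cells alone, with limma and with label coverage as library size. Limma called 3 in the E18.5 to P1 interaction, and matched cell numbers gave 3 in each of the other interactions. Leaving out 1 mouse gave 11 to 72 calls for P1 against E18.5, 4 to 65 for P7 against P1, 22 to 55 for P7 against E18.5 and 4 to 26 for hyperoxia. Without the E18.5 female, P1 against E18.5 had 24 calls and P7 against E18.5 had 42, and without the E18.5 male the latter had 25. For the interactions it gave 0 to 52 for P1 to P7, 0 to 29 for hyperoxia and 7 to 82 for E18.5 to P1. The 1415 genes set apart from Early Car4- cells became 663 with limma and 270 with matched numbers. The share over ages had an exact permutation p of 0.105, and 0.0476 without proliferative labels. No named gene changed direction under these alternatives. With matched numbers the median over all genes against Car4+ cells turned from -0.58 to 0.05, the split from 213 higher and 541 lower to 328 and 272 and against Early Car4- cells from 39 and 1376 to 144 and 126. The basement membrane median against Early Car4- cells turned from -0.27 to 0.07 and that of the connexins in the E18.5 to P1 interaction from -1.51 to 2.25. No paired analysis was possible because the labels give mice of different groups no shared replicate numbers; the differences between classes are paired within a mouse. Depth limits the P7 male most, with 4 cells and 536433 reads.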

Other observations

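Lyve1, a hyaluronan receptor used as a lymphatic marker, was well read in arterial EC I while Prox1, the defining lymphatic factor, had a median of 0 CPM. It was at 45.9 and 348 CPM in the female and male mouse at E18.5, 2941 and 3116 at P1, 708 and 358 at P7 and 3019 and 4969 in hyperoxia. In Early Car4- cells it was at 2059 and 2557 CPM at P1, 886 and 734 at P7 and 4025 and 3693 in hyperoxia. The arterial values of E18.5 and P1 did not overlap (log2 change 3.91 ± 0.79, adjusted p = 0.145 in edgeR's quasi-likelihood test), nor did those of P7 in normal air and hyperoxia (2.93 ± 0.76, adjusted p = 1.00). Hpgd, which breaks down prostaglandins, was at 15.7 and 73.2 CPM at E18.5 and 3267 and 3049.8 at P7 (5.99 ± 1.25, adjusted p = 0.119, edgeR). In hyperoxia 0 of 9 tested NRF2 target genes, which answer oxidative stress, were higher in both mice (16.8% of all genes) and 2 were lower (12.4%), and of 11 interferon genes 0 were higher and 0 lower in both. None of these genes passed the test.

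The single arterial EC I cell at P21, from the female, held 838631 reads and 4231 genes with a read. It had 433 CPM of Gja5, 1146 CPM of Gja4 and 175 CPM of Sox17, and no read of Car4. Of the genes called between ages, Plac8 was at 1533 CPM, Lmcd1 at 1095, Fmo2 at 1171, Thbd at 451 and Wfdc1 at 149, while Tslp and Prnp had 0 reads and Depp1 was at 53.7 CPM. Eln and Igf2r had 0 reads in it. As 1 cell it supports no comparison.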
